A study of Mus musculus with 3 samples.

Results

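The proteasome is the protease complex that breaks down ubiquitin-tagged proteins, and this account covers the genes of its subunits, regulators and assembly factors. Members were the loci with a single symbol made of Psma, Psmb, Psmc, Psmd, Psme, Psmf or Psmg and a digit, together with Pomp, whose mean FPKM over the 3 libraries was 1 or more. FPKM scales fragment counts for transcript length and for the size of the library. Of 24401 loci, 50 met the name rule and 48 also met the level, out of 11858 loci at that level. The 2 below it were Psmb11, a thymus-specific catalytic subunit with a mean of 0.360 FPKM, and Psma8, a testis-specific alpha subunit that was listed at 0 in conditioned media and in control. The lowest member, Psmc3ip at a mean of 4.39 FPKM, owes its place to its name and encodes a recombination factor, not a proteasome protein.

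RNA was sequenced from differentiated C2C12 cells, a mouse myoblast line that forms myotubes in culture, after treatment for 24 hours with 1 of 3 media; the labels give the cell type as myoblast. The first group received medium conditioned by S2-013 cells with 50 µM resveratrol, a plant polyphenol. S2-013 is a pancreatic cancer line of human origin, and its cells had been in that medium for 24 hours. The second group received the conditioned medium alone, and the control received DMEM. Before treatment every culture had spent 72 hours in differentiation medium (DMEM, 2% horse serum, 1 µg/ml insulin), and resveratrol without conditioned medium was not analysed here. Each group held 1 library of 1 cell line, so no value has a replicate error, no difference could be tested between cultures, and no p-value of this work is given. Of 7 myotube markers, 6 were found and ranged from 43.2 to 2272.5 FPKM with resveratrol, from 56.3 to 1496 FPKM in conditioned media and from 60.8 to 1568 FPKM in control. Leukocyte markers, which would mark cells that make immunoproteasomes without stimulation, summed to 1.95 FPKM with resveratrol, 1.98 FPKM in conditioned media and 1.33 FPKM in control. Ptprc, Adgre1 and Cd3e were among those at 0 in each library. Most of each sum was Cd68, at 1.82 FPKM with resveratrol, 1.49 FPKM in conditioned media and 1.02 FPKM in control.

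The catalytic core of the proteasome, the 20S particle, is a barrel of outer alpha rings and inner beta rings, and the proteolytic sites sit on the beta subunits Psmb5, Psmb6 and Psmb7. The 19S particle caps the barrel: its base of ATPases unfolds substrates, and its lid removes ubiquitin. After exposure to interferon, many cells replace the catalytic subunits with Psmb8, Psmb9 and Psmb10, forming the immunoproteasome, and add the PA28 activator of Psme1 and Psme2, which favours the production of peptides for MHC class I. In skeletal muscle the ubiquitin-proteasome pathway degrades myofibrillar proteins, and proteasome gene expression is known to increase in several forms of muscle wasting.

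The promoters of Psmb9 and Psmb8, and of Psmb6 and Psmb5 whose places they take, are shown because Psmb9 had the largest difference from control of all members while Psmb8 and the constitutive counterparts differed far less. Each sequence is the 250 bases before the RefSeq start site in GRCm38.p6, and capitals mark matches to motifs searched on both strands. Psmb9 is at chr17:34187331-34187580 on the minus strand, Psmb8 at chr17:34197945-34198194 on the plus strand, Psmb6 at chr11:70525107-70525356 on the plus strand and Psmb5 at chr14:54617996-54618245 on the minus strand.
Psmb9: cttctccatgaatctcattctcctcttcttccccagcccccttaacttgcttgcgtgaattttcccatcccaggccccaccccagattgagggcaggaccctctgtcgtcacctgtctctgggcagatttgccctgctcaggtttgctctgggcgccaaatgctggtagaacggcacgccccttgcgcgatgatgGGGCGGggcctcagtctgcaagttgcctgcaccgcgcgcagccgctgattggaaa
Psmb8: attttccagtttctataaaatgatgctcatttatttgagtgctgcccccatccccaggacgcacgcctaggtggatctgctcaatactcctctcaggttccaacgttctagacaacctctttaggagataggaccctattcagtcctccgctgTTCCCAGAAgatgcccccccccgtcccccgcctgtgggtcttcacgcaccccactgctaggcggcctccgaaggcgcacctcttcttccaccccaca
Psmb6: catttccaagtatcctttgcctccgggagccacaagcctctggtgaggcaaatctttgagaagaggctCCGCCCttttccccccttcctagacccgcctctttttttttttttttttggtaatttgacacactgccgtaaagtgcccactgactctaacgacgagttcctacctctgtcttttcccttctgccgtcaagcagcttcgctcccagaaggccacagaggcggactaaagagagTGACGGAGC
Psmb5: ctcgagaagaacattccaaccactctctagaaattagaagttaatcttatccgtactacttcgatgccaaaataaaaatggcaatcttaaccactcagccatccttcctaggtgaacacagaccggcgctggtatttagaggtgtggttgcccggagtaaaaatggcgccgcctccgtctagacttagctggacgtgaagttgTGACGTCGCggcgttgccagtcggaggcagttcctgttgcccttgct
The capitals in Psmb9 mark a GC box (GGGCGG), 55 to 50 bases before the start. In Psmb8 they mark a match to the gamma-activated site (TTCNNNGAA), to which STAT factors bind, 97 to 89 bases before the start. The whole Psmb8 stretch lies within its deposited locus (chr17:34197843-34201454), and the Psmb5 stretch overlaps the edge of its own (chr14:54614120-54618008). In Psmb6 they mark a GC box on the other strand and a match to the antioxidant response element (TGACNNNGC), to which the transcription factors NRF1 and NRF2 bind, 9 to 1 bases before the start. In Psmb5 they mark such an element 47 to 39 bases before the start. No marked matches overlapped. Motifs of interferon-regulatory factors and of NF-κB were also searched, their matches are not given here, and the capitals do not cover them; the gamma-activated site was searched in their place after expression values were known. Of 41 members with a promoter sequence, 5 (12.2%) held the antioxidant response element, against 10.2% of all 32851 promoters, and 23 (56.1%) held a GC box, against 32.7%. The gamma-activated site was in 2 members (4.88%), Psmb8 and Psmg1, against 7.02% of all promoters. The start site of Psmb9 lies 226 bases from that of Tap1, a peptide transporter gene on the opposite strand, so that both genes share this stretch.

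FPKM levels differed between roles. The 14 constitutive 20S subunits had a median level of 143 FPKM with resveratrol, 133 FPKM in conditioned media and 138 FPKM in control. The 17 subunits of the 19S particle lay lower, with medians of 82.2 FPKM with resveratrol, 76.3 FPKM in conditioned media and 97.4 FPKM in control. The 8 chaperones that act during assembly ran from 11.9 to 157 FPKM with resveratrol, from 8.74 to 123 FPKM in conditioned media and from 9.85 to 139 FPKM in control. Pomp, which assists the maturation of the beta rings and is itself degraded by the finished particle, held the upper end of these ranges in each library. The immunoproteasome catalytic subunits were expressed below their constitutive counterparts in every library.

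**Figure D1:**
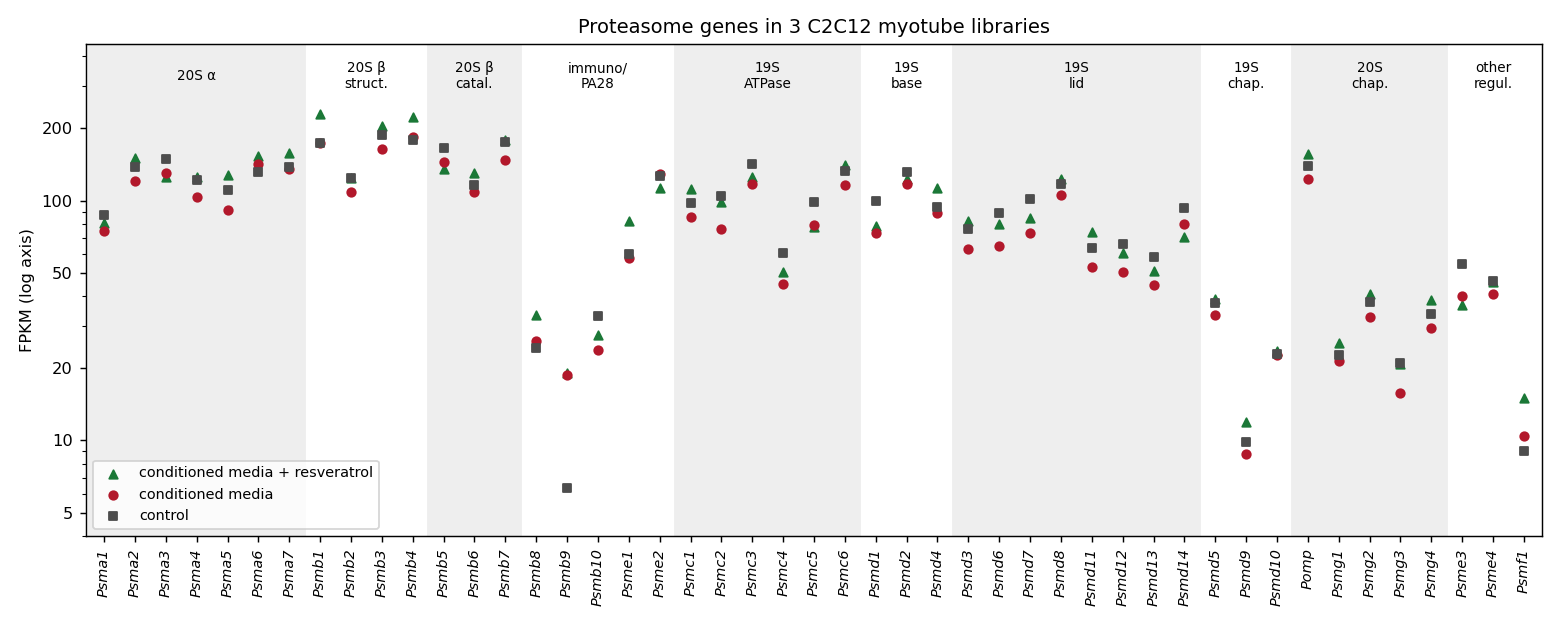
FPKM of 47 proteasome genes on a log axis, grouped by role, with a triangle for conditioned media with resveratrol, a circle for conditioned media and a square for control (1 library each; Psmc3ip is not drawn). The 20S subunits lie between 74.9 and 230 FPKM, the chaperones other than Pomp lie lower, and Psmb9 shows the widest gap, at 19.2 FPKM with resveratrol, 18.8 FPKM in conditioned media and 6.35 FPKM in control.

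In conditioned media, most proteasome genes had lower FPKM than in control. Of 48 members, 41 had a log2 ratio of conditioned media over control below 0, computed on FPKM + 1, and the median was -0.19. Over all 11858 loci, 51.3% of ratios were below 0 and the median was -0.011. The direction of the absolute values depended on scaling: with FPKM rescaled to TPM over all loci the median of all loci moved to 0.14, the median of members to 0.0042, and 19 members turned sign, which left 22 below 0. Measured from the median of all loci, the members' median was -0.18 as deposited, -0.13 with that rescaling, and -0.19 when loci of 200 bases or less were left out of it. A size rule (log2 ratio at or beyond 1 in either direction) was passed by 1 member, Psmb9, against 2.73% of all loci. The authors' deposited table calls 30 members lower and 2 higher, where it calls 29.9% and 25.8% of all tested loci lower and higher. Its calls compare single libraries, not conditions. In RNA from a whole culture, fewer cells of a type and less RNA per cell cannot be told apart.

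**Figure D2:**
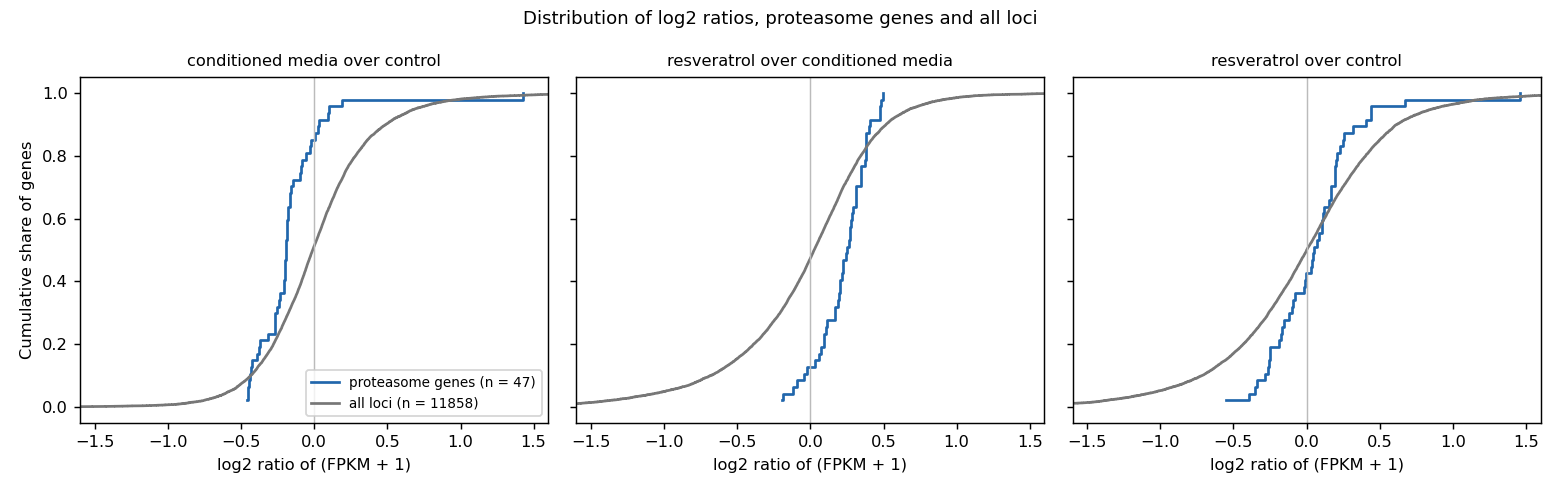
Cumulative share of 47 proteasome genes (blue) and of all 11858 loci (grey) by log2 ratio of FPKM + 1, 1 panel per comparison; Psmc3ip is not drawn. In conditioned media over control the blue curve lies left of the grey through its middle and in resveratrol over conditioned media right of it, with member medians of -0.19 and 0.25 over all 48 members; the first shrinks to 0.0042 with TPM over all loci.

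**Figure D3:**
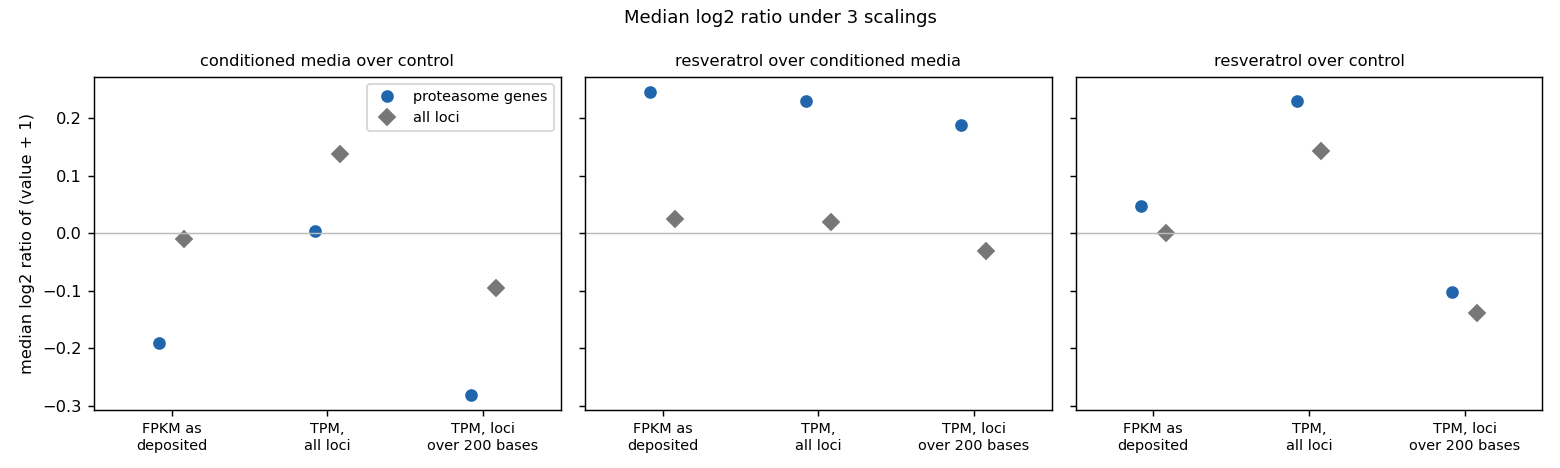
Median log2 ratio of the 48 members (circles) and of all loci (diamonds) with FPKM as deposited, with TPM over all loci and with TPM over loci longer than 200 bases, 1 panel per comparison. The position against 0 moves with the scaling, while the members stay below all loci in conditioned media over control (differences of -0.18, -0.13 and -0.19) and above them in resveratrol over conditioned media (0.22, 0.21 and 0.22).

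All 17 subunits of the 19S particle stood below control in conditioned media, the median log2 ratio being -0.27. The authors' deposited table calls 16 of them lower, all but the ubiquitin receptor Psmd4, against 29.9% of all tested loci. With TPM over all loci, 12 of the 17 stayed below 0 and the median was -0.076; Psmc1, Psmc6, Psmd2, Psmd4 and Psmd8 turned sign. Among the ATPases, Psmc2 stood at 76.3 FPKM in conditioned media and 104.6 FPKM in control (log2 ratio -0.45), and Psmc4 at 44.8 FPKM in conditioned media and 60.6 FPKM in control (log2 ratio -0.43). The deposited locus of Psmc2 spans 2.51 times its GENCODE gene and overlaps another locus. The smallest ATPase difference was that of Psmc6, at 116 FPKM in conditioned media and 132.5 FPKM in control. In the lid, Psmd7, the partner of the deubiquitinase Psmd14, stood at 73.5 FPKM in conditioned media and 101 FPKM in control (log2 ratio -0.45). Psmd6 stood at 64.9 FPKM in conditioned media and 88.7 FPKM in control (log2 ratio -0.44), and the lid's smallest difference was that of Psmd8, at 105 FPKM in conditioned media and 117 FPKM in control. The large base subunit Psmd1, a scaffold of the 19S base, had 73.2 FPKM in conditioned media and 99.6 FPKM in control (log2 ratio -0.44), whereas Psmd2, the other such scaffold, had 117 FPKM in conditioned media and 132 FPKM in control (log2 ratio -0.17). Psmd1 holds a small RNA gene, and Psmd2 shares 26.4% of its 50-base words with other genes. Subunits of 1 particle therefore differed by unequal amounts, from -0.088 for Psmd4 to -0.45 for Psmd7.

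Constitutive 20S subunits differed less, with a median of -0.19 over 14 genes, 11 of them below 0, which became 0.0025 with 6 of 14 below 0 under TPM over all loci. Without the members that share over 20% of their 50-base words with other genes or hold a small RNA gene, the 20S median was -0.063 with 5 of 8 below 0, and the 19S median was -0.27 with 13 of 13 below 0. The authors' deposited table calls 8 of the 14 lower and 0 higher, where it calls 29.9% and 25.8% of all tested loci lower and higher. In the alpha ring, the gate of the barrel, Psma5 had 91.4 FPKM in conditioned media and 110 FPKM in control (log2 ratio -0.27). Psma6 was on the other side of 0, at 142 FPKM in conditioned media and 132 FPKM in control, but its deposited locus spans 6.19 times its GENCODE gene and overlaps 4 other loci. The structural beta subunits Psmb1 and Psmb4 were close to control, at 174 and 183 FPKM in conditioned media and 173 and 179 FPKM in control, just above it as deposited and below it with TPM over longer loci. Of the catalytic subunits, Psmb7, with the trypsin-like site, had 148 FPKM in conditioned media and 175 FPKM in control (log2 ratio -0.24). Psmb6, with the caspase-like site, had 109 FPKM in conditioned media and 116 FPKM in control. Psmb5, with the chymotrypsin-like site, had 144.5 FPKM in conditioned media and 165 FPKM in control, a difference that the authors' deposited table does not call (q = 0.861). Psmb5 and Psmb6 turned above control with TPM over all loci. Psmb5 shares 57.1% of its 50-base words with transcripts of other genes, mainly processed pseudogenes, and holds a miRNA gene, so its value is uncertain. Psmb7 also holds a small RNA gene.

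Ratios within a library do not depend on scaling between libraries. The geometric mean of the 19S subunits over that of the constitutive 20S subunits was 0.586 with resveratrol, 0.589 in conditioned media and 0.660 in control. Without the doubtful members just described it was 0.586 with resveratrol, 0.568 in conditioned media and 0.667 in control. This ratio was chosen after the values had been seen. Both conditioned medium libraries thus had lower 19S transcript levels relative to 20S than the control library.

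All 8 assembly chaperones had FPKM below control in conditioned media, with a median log2 ratio of -0.17. The authors' deposited table calls 3 of the 8 lower, Pomp, Psmg3 and Psmd5, near its share of 29.9% of all tested loci. With TPM over all loci, 6 of the 8 turned above control, all but Psmg2 and Psmg3, and their median was 0.015. Psmg3, a partner of Psmg4 in alpha-ring assembly, had 15.7 FPKM in conditioned media and 20.9 FPKM in control (log2 ratio -0.39), though it shares 22.7% of its 50-base words with another gene. Psmg1 and Psmg2, the other alpha-ring chaperone pair, had 21.4 and 32.6 FPKM in conditioned media and 22.8 and 37.7 FPKM in control. Psmd10, known as gankyrin, and Psmd9, both chaperones of the 19S base, had 22.6 and 8.74 FPKM in conditioned media and 23.0 and 9.85 FPKM in control. Among the remaining regulators, Psme3, the nuclear activator PA28 gamma, had 40.2 FPKM in conditioned media and 54.5 FPKM in control (log2 ratio -0.43), and Psme4, the activator PA200, had 40.6 FPKM in conditioned media and 46.3 FPKM in control, which turned sign with TPM over all loci. Psmf1, which encodes the proteasome inhibitor PI31, was on the opposite side, at 10.5 FPKM in conditioned media and 9.06 FPKM in control (log2 ratio 0.19), and was the only constitutive member that the authors' deposited table calls higher.

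**Figure D4:**
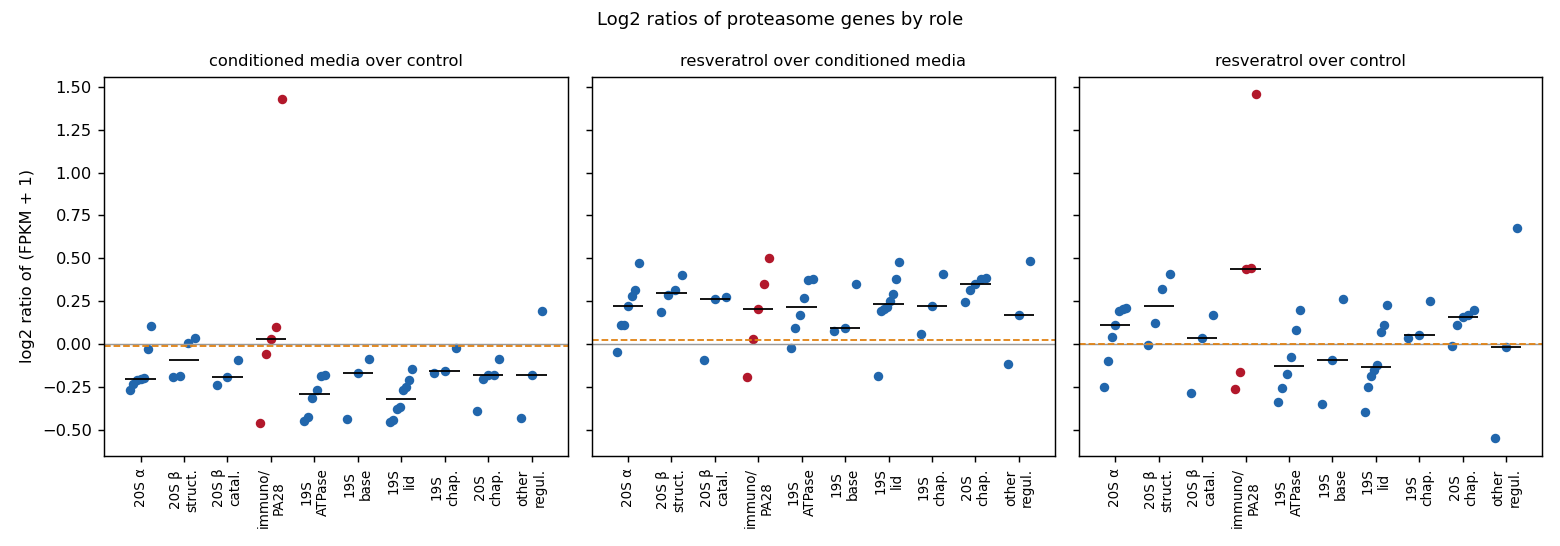
Log2 ratio of FPKM + 1 for 47 proteasome genes by role in 3 comparisons (red, immunoproteasome and PA28; blue, other members; black bars, role medians; dashed line, median of all loci; Psmc3ip is not drawn). In conditioned media over control all 19S subunits lie below 0 as deposited (12 of 17 with TPM over all loci) and Psmb9 stands at 1.43.

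The immunoproteasome genes differed from control in unlike ways. Psmb9, the inducible counterpart of Psmb6 (mm10 chr17:34182040-34187330), had 19.2 FPKM with resveratrol, 18.8 FPKM in conditioned media and 6.35 FPKM in control. Both conditioned medium libraries held nearly the same level, 3.02-fold that of control with resveratrol and 2.96-fold in conditioned media. The ratio of resveratrol over conditioned media was 0.029 as deposited and -0.030 with TPM over longer loci. On the log2 scale the ratios over control were 1.46 with resveratrol and 1.43 in conditioned media, they ran from 1.35 to 1.40 with the TPM rescalings, and the authors' deposited table calls both (q = 0.000148). Psmb8, the counterpart of Psmb5 and a neighbour of Psmb9 within the MHC region (chr17:34197843-34201454), had 33.5 FPKM with resveratrol, 26.1 FPKM in conditioned media and 24.4 FPKM in control. Its difference between conditioned media and control is not called in the authors' deposited table (log2 ratio 0.096, q = 0.414), while that between resveratrol and conditioned media is (log2 ratio 0.35, q = 0.000286). Psmb10, the counterpart of Psmb7, lies outside the MHC region (chr8:105935728-105938392) and had 27.4 FPKM with resveratrol, 23.7 FPKM in conditioned media and 33.1 FPKM in control. Its log2 ratio of -0.46 in conditioned media over control was the lowest of all 48 members as deposited. With TPM over all loci it was -0.25 and that of Psmd7 was slightly lower.

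The PA28 genes also parted from each other. Psme1, the alpha subunit (chr14:55578208-55585254), had 81.8 FPKM with resveratrol, 57.6 FPKM in conditioned media and 60.1 FPKM in control, highest with resveratrol; its ratio of conditioned media over control was -0.060 as deposited and 0.13 with TPM over all loci. Psme2, the beta subunit (chr14:55587440-55591101), had 113 FPKM with resveratrol, 129 FPKM in conditioned media and 127 FPKM in control, so that its resveratrol value lay below conditioned media where that of Psme1 lay above. Against control its direction turned with TPM over longer loci in conditioned media, and with TPM over all loci with resveratrol. Their ratio, Psme1 over Psme2, was 0.724 with resveratrol, 0.445 in conditioned media and 0.473 in control. Psme2 shares 59.3% of its 50-base words with Psme2b, a near-identical copy, and the deposited locus that holds Psme2b among interferon-induced genes stood at 5.33 FPKM with resveratrol, 26.3 FPKM in conditioned media and 29.5 FPKM in control. The part of those reads in the Psme2 value was not tested. The deposited locus of Psme1 spans 2.07 times its GENCODE gene and overlaps another locus.

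Over the 5 immunoproteasome and PA28 genes the median log2 ratio was 0.027 in conditioned media over control, against -0.19 over the 43 other members, with 3 genes above 0 and 2 below (4 and 1 with TPM over all loci, 2 and 3 over longer loci). That median became 0.22 with TPM over all loci and -0.063 over longer loci, so its sign depended on scaling. The ranges of both sets overlap, since as deposited Psmb10 lay below every constitutive member and Psmb9 above each of them. The ratio of Psmb9 to Psmb6 was 0.147 with resveratrol, 0.173 in conditioned media and 0.0546 in control. For Psmb8 to Psmb5 it was 0.247 with resveratrol, 0.181 in conditioned media and 0.147 in control. For Psmb10 to Psmb7 it was 0.153 with resveratrol, 0.160 in conditioned media and 0.189 in control. The ratios of Psmb9 and Psmb8 were thus higher in both conditioned medium cultures than in control and that of Psmb10 to Psmb7 was lower. The Psmb8 ratio and the summed ratio below rest on Psmb5, whose value is uncertain. The Psmb10 ratio and the summed ratio also rest on Psmb7, which holds a small RNA gene whose part in its value was not tested. Psmb5 had 135 FPKM with resveratrol, 144.5 FPKM in conditioned media and 165 FPKM in control. Psmb8 had 33.5, 26.1 and 24.4 FPKM in that order. The summed FPKM of the inducible subunits over that of the constitutive subunits was 0.180 with resveratrol, 0.171 in conditioned media and 0.140 in control.

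**Figure D5:**
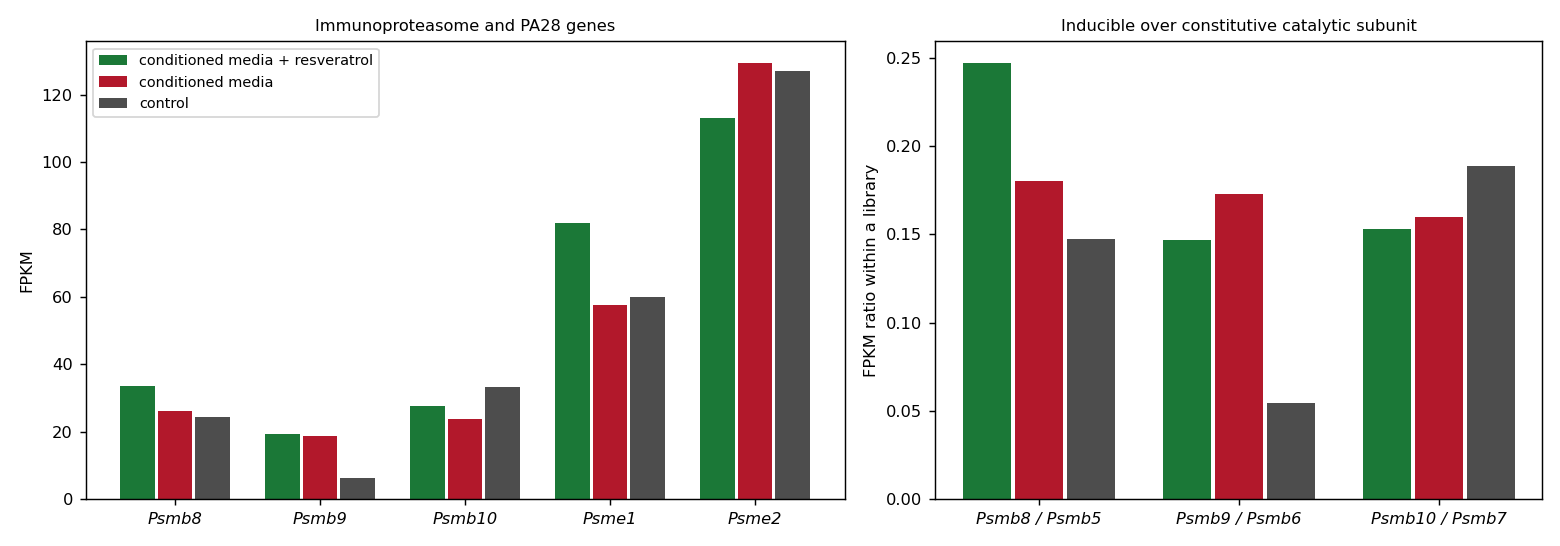
Left, FPKM of the 5 immunoproteasome and PA28 genes in conditioned media with resveratrol, conditioned media and control (1 library each, no error bars). Right, FPKM of each inducible catalytic subunit over that of its constitutive counterpart within a library; Psmb9 over Psmb6 stands at 0.147 and 0.173 in the conditioned medium libraries and at 0.0546 in control.

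With resveratrol in conditioned media, most members had higher FPKM than in conditioned media alone. Of 48 members, 41 had ratios above 0 and the median was 0.25, where 52.5% of all loci were above 0 with a median of 0.025. This direction held under both TPM rescalings, with medians of 0.23 and 0.19. None of the 48 members passed the size rule, against 6.5% of all loci. The authors' deposited table calls 35 members higher and 3 lower, where it calls 34.1% and 29.5% of all tested loci higher and lower. This comparison and the one before it share the conditioned media library, so a low value there lowers 1 ratio and raises the other. In FPKM, 35 of the 48 members had their lowest value in the conditioned media library. Cycling cell markers summed to 37.8 FPKM with resveratrol and 144 FPKM in conditioned media (113 FPKM in control) and myotube markers to 4223 FPKM with resveratrol and 2836 FPKM in conditioned media (2990 FPKM in control). Most of the myotube sum was Acta1, at 2272.5 FPKM with resveratrol and 1496 FPKM in conditioned media, whereas Ckm had 43.2 FPKM with resveratrol and 56.3 FPKM in conditioned media. Reserve cell markers summed to 2.96 FPKM with resveratrol and 9.93 FPKM in conditioned media (12.0 FPKM in control). The part of these markers in the proteasome values was not tested.

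All 5 chaperones of 20S assembly were higher with resveratrol, with a median log2 ratio of 0.35. Psmg3 had 20.8 FPKM with resveratrol and 15.7 FPKM in conditioned media (log2 ratio 0.38), Psmg4 had 38.5 FPKM with resveratrol and 29.4 FPKM in conditioned media, and Pomp had 157 FPKM with resveratrol and 123 FPKM in conditioned media. Psmd9 of the 19S chaperones had 11.9 FPKM with resveratrol and 8.74 FPKM in conditioned media (log2 ratio 0.41), while gankyrin, Psmd10, had 23.6 FPKM with resveratrol and 22.6 FPKM in conditioned media. The structural beta subunits were all higher, among them Psmb1 at 230 FPKM with resveratrol and 174 FPKM in conditioned media (log2 ratio 0.40). In the alpha ring the highest ratio was that of Psma5, at 127 FPKM with resveratrol and 91.4 FPKM in conditioned media (log2 ratio 0.47), and the lowest that of Psma3, at 126 FPKM with resveratrol and 130 FPKM in conditioned media (log2 ratio -0.046). Both share over 20% of their 50-base words with processed pseudogenes. In the 19S particle, 15 of 17 subunits had ratios above 0, led by Psmd11 at 74.3 FPKM with resveratrol and 53.0 FPKM in conditioned media (log2 ratio 0.48). Among the ATPases the highest ratio was that of Psmc1, at 112 FPKM with resveratrol, 85.5 FPKM in conditioned media and 97.4 FPKM in control (log2 ratio 0.38). Psmd5, a chaperone of the 19S base, had 38.9 FPKM with resveratrol, 33.3 FPKM in conditioned media and 37.5 FPKM in control.

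Further members kept to the order of most of the set, lowest in conditioned media as deposited. With TPM over all loci, Psma7, Psmb3 and Psmb2 lay above control in conditioned media (log2 ratios of 0.16, 0.0046 and 0.0013). In the alpha ring, Psma2 had 150.1 FPKM with resveratrol, 121 FPKM in conditioned media and 139 FPKM in control, and Psma7 had 158 FPKM with resveratrol, 135 FPKM in conditioned media and 138 FPKM in control. Psma4 had 126 FPKM with resveratrol, 103 FPKM in conditioned media and 122 FPKM in control, and Psma1 had 81.0 FPKM with resveratrol, 74.9 FPKM in conditioned media and 86.8 FPKM in control. Of the structural beta subunits, Psmb3 had 205 FPKM with resveratrol, 165 FPKM in conditioned media and 188 FPKM in control. Psmb2 was nearly level with resveratrol and in control, at 124 FPKM with resveratrol, 109 FPKM in conditioned media and 124 FPKM in control. Of the 19S subunits, the ATPase Psmc3 had 125 FPKM with resveratrol, 117 FPKM in conditioned media and 142 FPKM in control. In the lid, Psmd3 had 82.2 FPKM with resveratrol, 62.9 FPKM in conditioned media and 76.2 FPKM in control. Psmd12 had 60.2 FPKM with resveratrol, 50.5 FPKM in conditioned media and 65.6 FPKM in control, and Psmd13 had 51.0 FPKM with resveratrol, 44.5 FPKM in conditioned media and 58.3 FPKM in control. Psma4 and Psmb3 also share over 20% of their 50-base words with other genes.

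A few members did not share the most common order of libraries. Psmd14, the metalloprotease of the lid that removes ubiquitin chains, had 70.3 FPKM with resveratrol, 80.2 FPKM in conditioned media and 92.8 FPKM in control. It was thus lower in each conditioned medium library than in control, and the authors' deposited table calls all 3 of its differences. The ATPase Psmc5 had 77.5 FPKM with resveratrol, 78.9 FPKM in conditioned media and 98.4 FPKM in control, nearly level between both conditioned medium libraries. A small RNA gene lies within each of Psmd14 and Psmc5, and its part in these values was not tested. Psme3 followed the same order, at 36.9 FPKM with resveratrol, 40.2 FPKM in conditioned media and 54.5 FPKM in control. Psmf1 showed the reverse order, at 15.0 FPKM with resveratrol, 10.5 FPKM in conditioned media and 9.06 FPKM in control. It is called by the authors' deposited table as higher in all 3 comparisons.

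Against control, the direction of many members with resveratrol depended on scaling. Of 48 members, 12 turned sign with TPM over all loci, and 10 others with TPM over loci longer than 200 bases. As deposited, of 48 members, 27 had ratios above 0 and 21 below, with a median of 0.047. With TPM over all loci 39 were above 0 and 9 below (median 0.23), and with TPM over loci longer than 200 bases 17 were above and 31 below (median -0.10). The authors' deposited table calls 18 members higher and 14 lower, where it calls 34.1% of all tested loci in each direction, and 1 member, Psmb9, passed the size rule against 8.85% of all loci. The particles parted: 10 of 14 constitutive 20S subunits were above control, with a median of 0.12, whereas 11 of 17 subunits of the 19S particle were below it, with a median of -0.12. With TPM over all loci, 12 of 14 and 12 of 17 were above control (medians 0.31 for 20S and 0.066 for 19S subunits). With TPM over longer loci, 6 of 14 and 3 of 17 were above it (medians -0.033 for 20S and -0.27 for 19S subunits). Without the members with shared words or a small RNA gene, 6 of 8 subunits of 20S and 6 of 13 of 19S were above control as deposited. Psmb1 had 230 FPKM with resveratrol and 173 FPKM in control (log2 ratio 0.41), the highest ratio of the constitutive 20S subunits, and Psmb5 had 135 FPKM with resveratrol and 165 FPKM in control (log2 ratio -0.28), the lowest. Within the 19S particle the ratios ran from 0.26 for Psmd4, at 113 FPKM with resveratrol and 94.1 FPKM in control, to -0.40 for Psmd14. Among all members outside the immunoproteasome, Psmf1 (log2 ratio 0.67) and Psme3 (log2 ratio -0.55) were the extremes.

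Genes that work with the proteasome were followed as a list of associated factors and regulators, of which 30 symbols were found and met the level. In conditioned media over control, 21 of the 30 had ratios below 0 (median -0.11). With TPM over all loci, 11 of 30 were below 0 and the median was 0.081. The authors' deposited table calls 14 of the 30 lower and 7 higher, where it calls 29.9% and 25.8% of all tested loci lower and higher. Adrm1, the ubiquitin receptor of the 19S base that the name rule leaves out, had 53.7 FPKM with resveratrol, 43.0 FPKM in conditioned media and 67.7 FPKM in control. It had the lowest ratio of that list in conditioned media over control (log2 ratio -0.64), and the deubiquitinase Uchl5, which binds Adrm1, had 23.2 FPKM with resveratrol, 14.8 FPKM in conditioned media and 18.8 FPKM in control. The other proteasome-bound deubiquitinase, Usp14, was nearly level at 47.4 FPKM with resveratrol, 46.8 FPKM in conditioned media and 45.0 FPKM in control. Nfe2l1, which encodes NRF1, the factor that activates proteasome genes when proteasome activity is short, was at 234 FPKM with resveratrol, 230 FPKM in conditioned media and 153 FPKM in control. Its transcript was higher in both conditioned medium libraries (log2 ratios over control of 0.61 with resveratrol and 0.58 in conditioned media). Its relative Nfe2l2, which encodes NRF2, had 74.0 FPKM with resveratrol, 64.6 FPKM in conditioned media and 49.7 FPKM in control. Vcp, the segregase that extracts ubiquitinated proteins, had 223 FPKM with resveratrol, 181 FPKM in conditioned media and 239 FPKM in control. The polyubiquitin gene Ubb had 675 FPKM with resveratrol, 584 FPKM in conditioned media and 481 FPKM in control.

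In resveratrol over conditioned media, 25 of the 30 associated genes had ratios above 0, with a median of 0.21. The authors' deposited table calls 17 of the 30 higher and 2 lower, where it calls 34.1% and 29.5% of all tested loci higher and lower. The largest were Zfand5, a zinc finger protein that stimulates the proteasome, at 32.1 FPKM with resveratrol, 18.1 FPKM in conditioned media and 14.2 FPKM in control, and the shuttle factor Ubqln2 at 30.3 FPKM with resveratrol, 17.2 FPKM in conditioned media and 18.6 FPKM in control. Zfand5 over control was the only ratio of this list past the size rule (log2 ratio 1.12).

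The factors that induce the immunoproteasome had no common direction. Of 18 interferon and antigen presentation genes that met the level, 11 had ratios above 0 in conditioned media over control (median 0.12). With TPM over all loci 15 of 18 were above 0, and with TPM over loci longer than 200 bases 9 of 18 (median 0.033). The authors' deposited table calls 9 of the 18 higher and 5 lower, where it calls 25.8% and 29.9% of all tested loci higher and lower. Irf1, the interferon-regulatory factor that activates Psmb9 and Tap1, had 31.0 FPKM with resveratrol, 53.8 FPKM in conditioned media and 32.8 FPKM in control, highest in conditioned media. Tap1, which shares its promoter stretch with Psmb9, had 24.0 FPKM with resveratrol, 28.2 FPKM in conditioned media and 18.4 FPKM in control, a log2 ratio of 0.59 in conditioned media over control beside 1.43 for Psmb9. H2-K1, a class I heavy chain, had 597 FPKM with resveratrol, 343 FPKM in conditioned media and 271 FPKM in control. The class I light chain B2m had 3036 FPKM with resveratrol, 2264 FPKM in conditioned media and 2164 FPKM in control. In conditioned media over control B2m is not called, and its log2 ratio turned to -0.025 with TPM over loci longer than 200 bases.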

How the data were processed

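The data are 1 RNA library each from myotubes in conditioned media with resveratrol, in conditioned media and in control, grouped by their treatment labels. Per the submitters' processing notes, reads were handled with Cuffdiff 2.2.1.3, Cufflinks 2.2.1.0, TopHat2 2.1.0 with Bowtie, Trim Galore 0.4.3.1 and FastQC 0.69, on mm10. The sources used here give neither annotation nor strand setting, nor how libraries were scaled. The deposited table holds the authors' FPKM, log2 fold change (the ratio of FPKM, without a pseudocount), test score, and p-values and q-values. Depth is unknown, so no counting interval could be given. FPKM summed to 2956880, 2953950 and 3384770 over the libraries in the order above, with 78.4%, 79.3% and 83.0% of it from loci no longer than 200 bases, so rescaling to TPM follows those loci.

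Here log2((FPKM + 1)/(FPKM + 1)) was computed with pandas 2.3.3, and medians of members were set beside those of all loci with a mean FPKM of 1 or more. No symbol among the members was repeated. The size rule was tested on simulated data. Members, lists and rules were chosen with earlier results of these data known. Named were all immunoproteasome members and catalytic subunits, assembly factors, members past the size rule, and the extremes of each role. Other members were named to show ranges. Of the other lists, genes fixed by name and those with the largest ratios were named, while Vcp, Ubb and B2m were chosen after their values were seen. Starts in the deposited table were taken to count from 0, since start plus 1 equalled the RefSeq start for 24 of 48 members and the start itself for 0. Promoter motifs, like the members, lists and rules, were chosen with earlier results of these data known. Some genes that the naming rule selects are not reported here. Words of 50 bases shared with other genes and small RNA genes came from GENCODE M21. Alternatives changed the pseudocount, the filter, the scaling, the choice of locus and the members.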

Additional observations from a re-analysis of the deposited data

How the results depend on the processing

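Of 120 values recomputed under alternatives, 111 stayed within 0.1 on the log2 scale (or, for ratios within a library, within 10%; counts within 1.5 times), 5 moved further and 4 moved further and turned sign. These 9 came from rescaling FPKM to TPM. Of the 111, 18 came from summing the loci of a symbol and could not move, since no member symbol was repeated. The ratios within a library were recomputed only in this way, so their stability was not tested. In conditioned media over control, TPM over all loci gave medians of 0.0042 for all members, 0.0013 for constitutive members and 0.22 for immunoproteasome members. The immunoproteasome median also turned sign within that tolerance, to -0.063 with TPM over loci longer than 200 bases. In resveratrol over control TPM over all loci gave 0.23, 0.23 and 0.59, and TPM over loci longer than 200 bases gave -0.10, -0.11 and 0.29. Both follow from their construction, since the sum that sets the scale differs between libraries. Pseudocounts of 0.1 and 5, no filter, a mean FPKM of 5 or more, centring, summed loci, and leaving out Psmc3ip moved none of these 120 values further, nor did leaving out 12 members with shared words or small RNA genes, an alternative chosen after seeing the data. The 20S and 19S medians were not among these values, and without the 12 the 20S median in conditioned media over control was -0.063, against -0.19 with them; the cause was not tested. Without these 12, 30 of 36 members lay below 0 in conditioned media over control and 34 of 36 above 0 in resveratrol over conditioned media. No paired analysis was possible because each group held 1 library, and for the same reason no library could be left out. Depth is unknown, so differences of this size cannot be set against counting error.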
